A study of Bos taurus with 111 samples.

Results

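The muscle of Holstein-Friesian (HF) steers was compared between the end of H1 and the end of H2, when the same high concentrate diet was offered about a year apart. The members were chosen by labels alone: breed HF, diet H1 or H2, and at least 1000000 reads counted on genes. Of 38 HF libraries labelled H1 or H2, 36 were kept, out of 111 libraries in the series. They came from 31 steers. H1 held 20 libraries (11 H-RFI and 9 L-RFI) and H2 held 16 (8 H-RFI and 8 L-RFI), and 5 steers had a library in both phases. The steers averaged 294 kg (SD 42.3) and 306 d of age (SD 7.7) at the start of the initial 70 d feeding phase, and 611 kg (SD 49.3) at the start of the last, so diet is held and age, weight and calendar time all differ.

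Residual feed intake (RFI) is the difference between the feed an animal eats and the feed predicted from its weight and growth. The labels also name back fat change among the predictors, which the study's brief account of the computation does not. L-RFI steers are the efficient class and H-RFI steers the inefficient class, and only animals from the extremes of the ranking within breed and diet were sequenced. Between H1 and H2 all steers ate zero-grazed grass (ZG). HF are a dairy breed and the Charolais (CH) steers of the same study a beef breed. RNA came from biopsies of the M. longissimus thoracis et lumborum, the loin muscle, at the end of each phase, and was sequenced as stranded poly(A) libraries. H1 and H2 therefore differ in everything that changed over that time, and growth stage, season and sampling day cannot be told apart.

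Cattle deposit fat late in growth, and in the loin this includes marbling, the adipocytes that lie between the muscle fibres. An adipocyte makes fatty acids through a chain of enzymes, carries them on fatty acid binding proteins and stores them in lipid droplets. The fibres around it burn fuel in mitochondria, whose respiratory chain is coded partly by mitochondrial DNA. Immediate early genes, many of them transcription regulators, are switched on quickly by many kinds of stimulus, and their mRNAs decay soon after.

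Levels are given as counts scaled to a library total of 1000000 (CPM), scaled by TMM factors, and can be compared between libraries but not between genes, since they are not divided by gene length. Changes are log2 fold changes of H2 against H1 with their standard errors (SE), from limma voom with RFI class as a term and the steer as a random block. A gene was called at a Benjamini-Hochberg adjusted p below 0.1 and a fold change above 1.5. Gene names could be matched for 128 of the 10448 genes tested, and they are names of genes that the study picked for RFI differences in these libraries.

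Read counts on genes ranged from 4697169 to 38953671 in the kept libraries and had a mean log10 difference of 0.0814 between phases that did not pass its test (two-sided permutation p = 0.198). The share of reads on no gene ran from 5.91 to 16.9% in H1 and from 6.17 to 17.9% in H2, with medians of 13.6% and 9.76% (p = 0.0888, same kind of test), and it was lower in H2 in each of the 5 steers with both phases. The leading principal component held 54.5% of the variance, and its libraries lay between -88.4 and 115 in H2 and between -60.7 and 61.3 in H1. Its medians were 20.6 in H2 and -17.1 in H1. At its ends were the H2 libraries of steers 5588 (-88.4, 17.9% of reads on no gene) and 1811 (115, 6.17%). TMM factors had medians of 1.22 in H1 and 0.906 in H2. The part of library composition in this component was not tested. The L-RFI H1 library of steer 2102 stood apart with 35.0% of its reads mapping to several places, against 5.15 to 9.88% in the others. The H2 libraries of H-RFI steers 5588 and 1639 had the highest levels of PTPRC, the common leukocyte antigen, at 34.0 and 31.0 CPM against 12.1 CPM or less in H1. The libraries left out were an L-RFI H1 library of 102714 counts and an H-RFI H2 library of 6062 counts.

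More genes were lower than higher in H2. Of 10448 genes, 199 were higher (1.90%) and 872 were lower (8.35%), and the median change over all of them was -0.04. Genes were kept at 1 CPM in 50% of the libraries, of which 20 were H1 and 16 H2. A gene at that level in H1 alone could thus be kept, and one in H2 alone could not. With no filter on low counts 366 were higher and 1481 lower. Among the 128 genes with a name, 9 were higher (7.03%) and 16 lower (12.5%), both above the shares over all genes. A split far closer to even came from edgeR's quasi-likelihood test without the replicate block, with 434 higher and 595 lower, and from DESeq2, with 522 and 621. With the steer as a fixed replicate block only steers with both phases can inform the comparison, at 3 residual degrees of freedom. Steer 1920 changed RFI class between them, so the class term took up its difference. The phase change thus rested on steers 1811, 2071, 2095 and 2220, and edgeR then called 2354 genes higher and 2993 lower. Of the 46 leading members of the gene lists that were not called, 23 were called in that fit (11 higher and 12 lower), close to its share over all genes (5347 of 10448). Without the H2 library of steer 2071 the lower genes numbered 575, and without the H2 library of steer 5588 the higher genes numbered 307. The leading genes with no name were ENSBTAG00000001576 (1.23 ± 0.14, adjusted p = 1.64e-06) and ENSBTAG00000021487 (2.12 ± 0.25, adjusted p = 1.64e-06) among the higher, and ENSBTAG00000037858 (-1.71 ± 0.24, adjusted p = 4.55e-05) and ENSBTAG00000017069 (-1.52 ± 0.22, adjusted p = 4.55e-05) among the lower.

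TRARG1, CIDEC and FABP4, 3 of the 4 adipocyte genes measured, rose between H1 and H2. The list held 20 genes, of which these 4 had a name here, and 0 were lower, with a median change of 2.17 against -0.04 over all genes. Over all genes 1.90% were higher, and over named genes 7.03%. TRARG1, which helps to bring the glucose transporter GLUT4 to the surface of fat and muscle cells, lay between 0.505 and 33.0 CPM in H1 (median 1.93) and between 3.63 and 40.9 CPM in H2 (median 10.9). All 16 H2 libraries were above the H1 median, and the ranges overlapped through the highest H1 libraries. The change was 2.27 ± 0.43, a 4.82-fold rise (adjusted p = 0.000954).

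CIDEC, a lipid droplet protein that fuses small droplets into large ones, ran from 0.475 to 31.1 CPM in H1 (median 2.59) and from 3.08 to 57.9 CPM in H2 (median 12.9). Here too every H2 library exceeded the H1 median, and 4 exceeded the highest H1 library. It rose by 2.31 ± 0.48 (adjusted p = 0.00212). FABP4, the fatty acid carrier of adipocytes, had levels of 0.802 to 72.6 CPM in H1 (median 4.05) and 3.30 to 58.6 CPM in H2 (median 14.7). The highest library of both phases was an H1 library, yet 15 of 16 H2 libraries lay above the H1 median. Its change was 2.07 ± 0.45 (adjusted p = 0.00332).

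ANGPTL8, a secreted protein that steers circulating fat toward adipose tissue, did not pass the threshold: its levels were 0.149 to 31.1 CPM in H1 (median 1.35) and 1.10 to 23.8 CPM in H2 (median 2.21), with a change of 1.23 ± 0.51 (adjusted p = 0.106). It was called in 8 of 17 alternatives, among them voom without the replicate block (1.28, adjusted p = 0.0725). The same held in 11 of the 36 fits that left out 1 library. In edgeR without the block it was not called (0.84, adjusted p = 0.341). The groups overlapped over most of their range, and 12 of 16 H2 libraries were above the H1 median. The summed level of the 4 adipocyte genes went from a median of 9.77 CPM in H1 (1.93 to 168) to 20.8 CPM in ZG (3.62 to 101) and 40.9 CPM in H2 (11.1 to 163). In whole biopsies, more cells of a type and more RNA per cell cannot be told apart.

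Fatty acid synthesis was carried by 3 genes of 20 listed, of which 1 was called higher and 0 lower, with a median change of 0.79. Over all genes 1.90% were higher, and over named genes 7.03%. THRSP, a nuclear protein that promotes lipogenesis, spanned 0.475 to 106 CPM in H1 (median 3.90) and 5.36 to 106 CPM in H2 (median 13.9). Again all 16 H2 libraries stood above the H1 median, and 11 of the 20 H1 libraries stood below the lowest H2 library. It rose by 1.98 ± 0.54 (adjusted p = 0.0155). FASN, the enzyme that builds palmitate, was at 23.8 to 400 CPM in H1 (median 51.8) and at 34.2 to 413 CPM in H2 (median 88.0). Its groups overlapped almost wholly and the change of 0.62 ± 0.35 did not pass (adjusted p = 0.234). ELOVL6, which lengthens palmitate, had a change of 0.79 ± 0.46 (adjusted p = 0.243), with medians of 1.78 CPM in H1 and 4.20 CPM in H2. With the steer as a fixed replicate block FASN and ELOVL6 were both called (1.51 and 1.08, adjusted p = 0.00613 and 0.0376), in a fit that called 5347 of 10448 genes. With the share of reads on no gene as a covariate FASN changed by 0.37 (adjusted p = 0.393) and ELOVL6 by 1.04 (adjusted p = 0.0681).

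A single H1 library was the highest of its phase for TRARG1, CIDEC, FABP4, ANGPTL8, THRSP, FASN and ELOVL6, that of H-RFI steer 5613. In H2 the highest library of each of these genes was that of steer 5609 or steer 1657. The calls for TRARG1, CIDEC, FABP4 and THRSP held in each fit that left out 1 library, this one included.

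**Figure D1:**
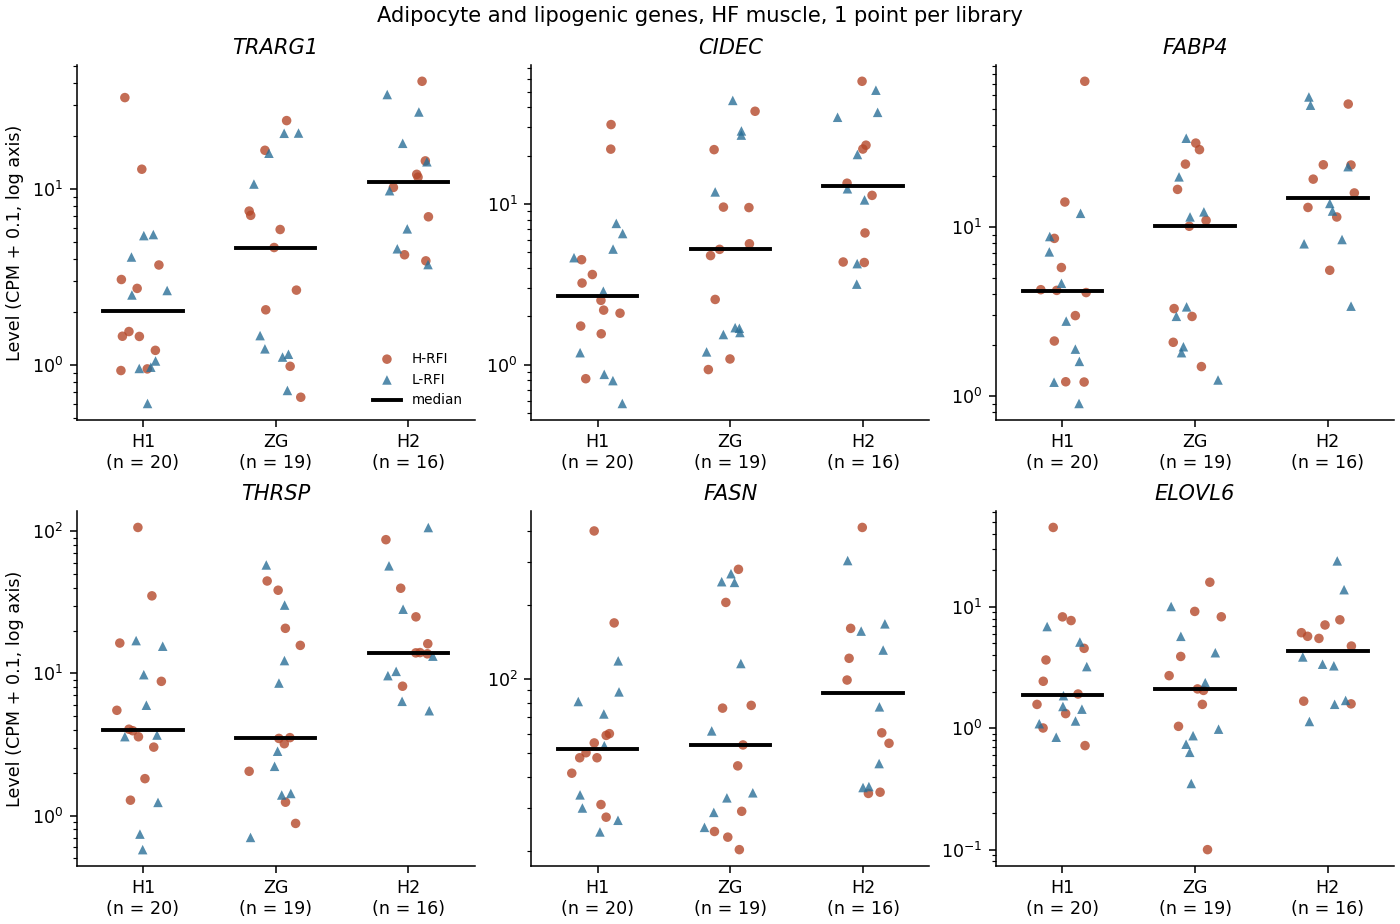
Levels of 6 adipocyte and lipogenic genes (CPM plus 0.1, log axis) in each HF library of H1, ZG and H2; points are libraries, colours and shapes give RFI class, and black bars are medians. The H2 medians of TRARG1, CIDEC, FABP4 and THRSP (10.9, 12.9, 14.7 and 13.9 CPM) lie well above those of H1 (1.93, 2.59, 4.05 and 3.90 CPM), while FASN and ELOVL6 overlap more.

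Of 20 genes listed for the uptake and burning of fatty acids in muscle, 4 were measured and 0 passed, with a median change of 0.39. PDK4, the kinase that turns pyruvate dehydrogenase off and so spares glucose, was at 10.1 to 398 CPM in H1 (median 59.5) and at 3.26 to 372 CPM in H2 (median 21.5). Of the H2 libraries, 5 lay below the lowest of H1, but the highest of both phases were close. Its change of -1.46 ± 0.61 missed the threshold (adjusted p = 0.108) but was past it in 10 of 17 alternatives, among them the fit without the replicate block (-1.56, adjusted p = 0.0648) and that with the steer as a fixed block (-3.74, adjusted p = 0.00277), and in 15 of the 36 fits that left out 1 library. It was lower in H2 in all 5 steers with both phases. PLIN5, a droplet protein of oxidative tissues, had medians of 9.79 and 9.69 CPM (change 0.08 ± 0.24, adjusted p = 0.843). ACSM1, which activates medium chain fatty acids, changed by 0.83 ± 0.41 (adjusted p = 0.171), and the transporter SLC27A6 by 0.70 ± 0.37 (adjusted p = 0.202). The fixed block gave 2 calls higher (ACSM1 and PLIN5) and 1 lower (PDK4) among the 4, where it called 5347 of all 10448 genes. The share of reads on no gene as a covariate gave 1 higher (SLC27A6).

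Both respiratory chain genes coded by mitochondrial DNA that had a name were higher in H2, and the named nuclear subunit had a smaller change that did not pass (3 measured of 29 listed, 2 higher, 0 lower, median change 1.03). Over all genes 1.90% were higher, and over named genes 7.03%. MT-CO3, a subunit of cytochrome c oxidase, lay between 8111 and 58862 CPM in H1 (median 15113) and between 12146 and 102398 CPM in H2 (median 53329). Of the 16 H2 libraries, 8 were above the highest of H1, and 2 were below the H1 median. The change was 1.03 ± 0.29 (adjusted p = 0.0198). MT-ND3, a subunit of complex I, had medians of 4489 CPM in H1 and 14870 CPM in H2 and rose by 1.22 ± 0.31 (adjusted p = 0.00978). NDUFA3, the nuclear coded subunit of complex I, had medians of 28.1 and 38.9 CPM and a change of 0.40 ± 0.33 (adjusted p = 0.417). It was 1.31 to 7.66 times higher in H2 in the 5 steers with both phases, and it was called with the steer as a fixed replicate block (1.71, adjusted p = 0.00613), in DESeq2 (0.76, adjusted p = 0.0802) and with sample quality weights (0.63, adjusted p = 0.0375). The fixed block called 5347 of 10448 genes. With the share of reads on no gene as a covariate the change of NDUFA3 was -0.04 (adjusted p = 0.900).

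The share of reads on no gene moved with the mitochondrial genes. With that share as a covariate the changes of MT-CO3 and MT-ND3 were 0.69 and 0.86 (adjusted p = 0.00594 and 0.00139) and both stayed called, while those of TRARG1 and CIDEC were 2.09 and 2.06. With the 2 shallow libraries kept, neither MT-CO3 nor MT-ND3 was called. Over the whole table the covariate left 140 genes higher and 629 lower, of which 536 in all were among the 1071 called without it. Its part in the results was otherwise not tested.

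**Figure D2:**
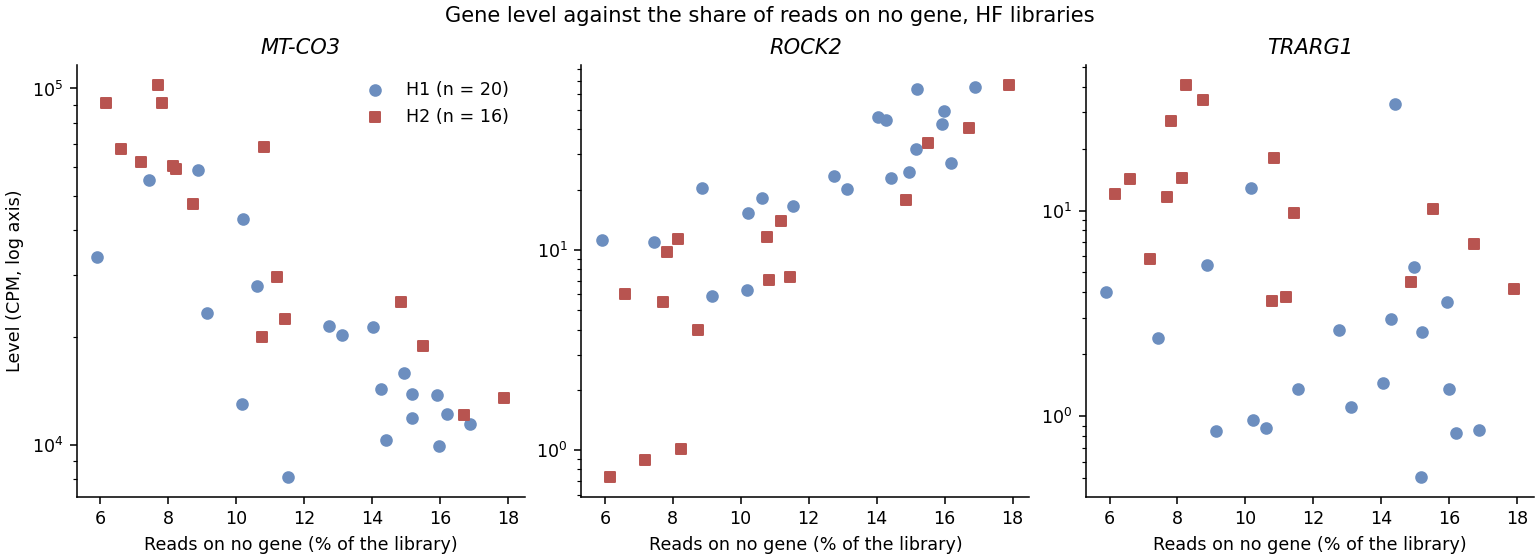
Level of MT-CO3, ROCK2 and TRARG1 (CPM, log axis) against the share of reads on no gene (percent of the library) in the 20 H1 and 16 H2 libraries. MT-CO3 is lower and ROCK2 higher in libraries with a larger share, in both phases, and the 16 H2 points of TRARG1 lie at 3.63 CPM or above at low and high shares alike.

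FOSL2, MIDN, BTG2, JUN and NR4A2, 5 of the 17 immediate early genes measured, were lower in H2 and 0 were higher, where 8.35% of all genes and 12.5% of named genes were lower. The list held 33 genes, and the median change of those measured was -0.56. The list's best known members did not pass: FOS had medians of 18.0 CPM in H1 and 14.4 CPM in H2 (change -0.56 ± 0.51, adjusted p = 0.464), and EGR1 of 7.22 and 9.61 CPM (change 0.53 ± 0.40, adjusted p = 0.380).

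FOSL2, a partner of JUN in the AP-1 transcription factor, lay between 1.69 and 7.50 CPM in H1 (median 4.28) and between 0.814 and 4.01 CPM in H2 (median 2.29). All 16 H2 libraries were below the H1 median, and 12 of 20 H1 libraries were above the highest of H2. It fell by 0.95 on the log2 scale (SE 0.20, adjusted p = 0.00269). BTG2, an antiproliferative protein that also promotes mRNA decay, ran from 4.03 to 96.8 CPM in H1 (median 13.8) and from 2.75 to 30.9 CPM in H2 (median 5.35). Here 7 of 20 H1 libraries exceeded the highest of H2, and the change was -1.48 ± 0.44 (adjusted p = 0.0257).

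MIDN, the midnolin that hands early gene products to the proteasome, had levels of 3.66 to 28.0 CPM in H1 (median 8.74) and 1.41 to 13.8 CPM in H2 (median 4.74), and its change was -0.95 ± 0.28 (adjusted p = 0.0228). All but 1 of the H2 libraries were below the H1 median. NR4A2, an orphan nuclear receptor, went from a median of 4.46 CPM (0.387 to 69.3) to 0.603 CPM (0 to 25.5), a change of -2.03 ± 0.77 (adjusted p = 0.0768). Of the 16 H2 libraries, 6 were below the lowest of H1 while 3 were above its median, and the call was lost in 10 of the 36 fits that left out 1 library, at adjusted p of 0.102 to 0.138. These were the H2 libraries of steers 1657, 1920, 2071, 2220, 2266 and 2297 and the H1 libraries of steers 2068, 2069, 2220 and 5635. JUN, the partner of FOSL2 in AP-1, went from 82.9 to 53.5 CPM in the median. Its change of -0.59 ± 0.22 (adjusted p = 0.0708) was barely past the fold limit and was lost with RLE size factors and in 17 of the 36 fits that left out 1 library, over which its change ran from -0.67 to -0.52.

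**Figure D3:**
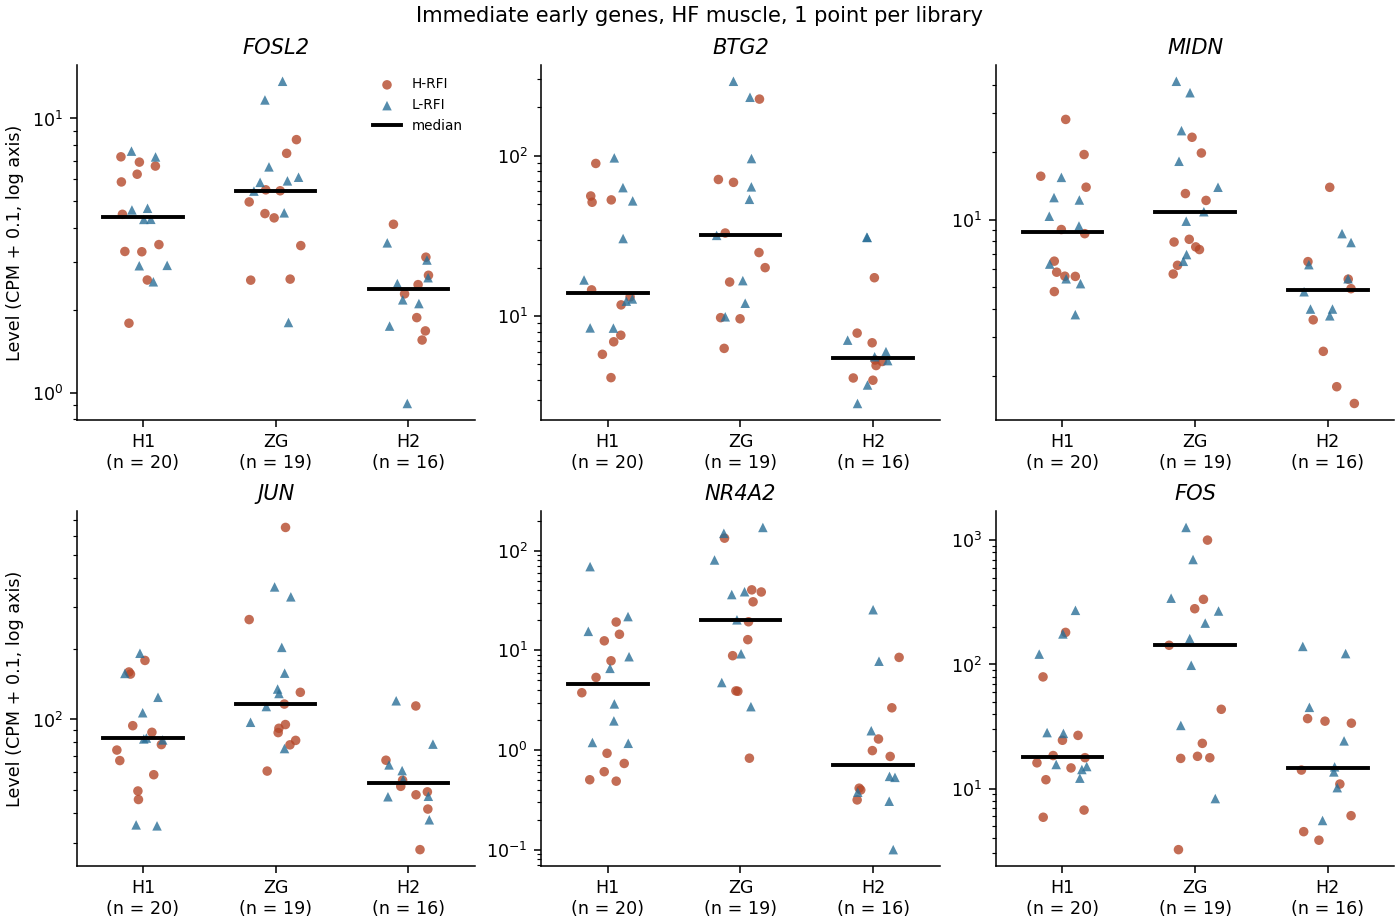
Levels of 6 immediate early genes (CPM plus 0.1, log axis) in each HF library of H1, ZG and H2, drawn as in the plot of the adipocyte genes. FOSL2 is tight and lower in H2 (median 2.29 CPM against 4.28 CPM in H1), while NR4A2 and FOS spread widely within every phase and have their highest medians, 20.2 and 143 CPM, in ZG.

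Several other regulators were lower in H2. TBX3, a transcription factor of the T-box family, lay between 1.07 and 9.09 CPM in H1 (median 3.43) and between 0.209 and 5.72 CPM in H2 (median 0.936). Of the 16 H2 libraries, 10 were below the lowest H1 library. It fell by 1.70 on the log2 scale, 3.26-fold (SE 0.33, adjusted p = 0.00130). FOXO1, a transcription factor that drives protein breakdown genes in muscle, ran from 2.02 to 24.4 CPM in H1 (median 5.10) and from 0.592 to 14.5 CPM in H2 (median 2.35). The H2 library of steer 5588 was the only one above the H1 median, and the change was -1.14 ± 0.37 (adjusted p = 0.0424). FOXO1 was the 1 gene called among 5 measured of 20 listed for protein breakdown and growth restraint, whose median change was -0.46. Over all genes 8.35% were lower, and over named genes 12.5%. METTL21C, GADD45A and PIM1 of that list had changes of -0.43, -0.58 and -0.36 and did not pass.

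ROCK2, a kinase that acts on the actin cytoskeleton, was at 5.88 to 65.0 CPM in H1 (median 23.1) and at 0.733 to 66.7 CPM in H2 (median 8.55). The H2 libraries covered the whole H1 range, with 5 below its lowest and 1 above its highest, and the change was -1.45 ± 0.48 (adjusted p = 0.0424). With the share of reads on no gene as a covariate the change was -0.77. NAV2, a protein of growing nerve processes, and EML6, a microtubule protein, were lower too. NAV2 had medians of 1.71 CPM in H1 and 0.888 CPM in H2, and 15 of 20 H1 libraries were above the highest of H2 (change -1.02 ± 0.25, adjusted p = 0.00730). EML6 had medians of 1.5 and 0.433 CPM, with 8 of 16 H2 libraries below the lowest of H1 (change -1.49 ± 0.34, adjusted p = 0.00446). The H2 medians of NAV2, EML6, TBX3 and NR4A2 were below the filter limit of 1 CPM. These genes were kept mainly through their H1 libraries, so their counts of libraries outside the other phase's range are descriptions only.

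Genes of the NF-κB pathway went in both directions. NFKBIA, the inhibitor that holds NF-κB in the cytoplasm, spanned 4.54 to 20.2 CPM in H1 (median 11.3) and 11.3 to 36.4 CPM in H2 (median 17.8). Every H2 library was above the H1 median, and it rose by 0.65 ± 0.18 (adjusted p = 0.0195). MAP3K14, the kinase that starts the noncanonical branch, had medians of 17.1 CPM in H1 and 11.7 CPM in H2 and fell by 0.73 on the log2 scale (SE 0.23, adjusted p = 0.0354). ZC3H12A, an RNase that degrades inflammatory mRNAs, had medians of 3.35 and 2.00 CPM and fell by 0.65 on the log2 scale (SE 0.20, adjusted p = 0.0339). Without the H2 library of steer 1639 the changes of NFKBIA and ZC3H12A were 0.57 and -0.57, under the fold limit, as was that of ZC3H12A without the H2 library of steer 5588 (-0.56). No list of this pathway was tested, and the 3 genes were grouped after their values were seen.

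Of the remaining higher genes, ARRDC2, an arrestin family protein, lay between 3.08 and 18.0 CPM in H1 (median 7.21) and between 4.69 and 114 CPM in H2 (median 14.2). Of the 16 H2 libraries, 7 were above the highest of H1, and the change was 1.17 ± 0.33 (adjusted p = 0.0203). NMRAL1, a sensor of the NADPH level, had medians of 6.12 and 11.3 CPM and rose by 1.01 ± 0.31 (adjusted p = 0.0330).

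None of the 9 genes measured from the contractile lists passed. CHRND, counted among them, is also on the neuromuscular junction list. The 15 listed defining markers of muscle fibres had no name here, so the contractile lists were looked at instead. Their 9 named members had at least 3 reads in all 36 libraries, too low a limit to establish the tissue by itself. Of the slow contractile list 4 of 19 were measured, with a median change of 0.01. MYH6, a cardiac myosin heavy chain, had 85.3 to 878 CPM in H1 (median 340) and 68.1 to 928 CPM in H2 (median 373), ranges that overlapped almost wholly. The other slow list members MYL6B, PLN and CSRP3 changed by -0.54, 0.03 and -0.01. The fast list was represented by MYH4 alone (-0.07 ± 0.37), whose H2 libraries ran from 1.01 to 74.8 CPM through a single high library, that of steer 2266. Of the developmental list 4 of 15 were measured, with a median change of -0.12, and MYH8, the perinatal myosin, had medians of 26.8 and 25.2 CPM. ACTC1, the cardiac actin of developing muscle, was at -0.73 ± 0.43 (adjusted p = 0.251). With the share of reads on no gene as a covariate ACTC1 and MYL6B were called lower (-1.03 and -0.94, adjusted p = 0.0255 and 0.0839). The steer as a fixed replicate block gave MYH8 and MYH4 as lower (-0.74 and -0.99, adjusted p = 0.0280 and 0.0641) and CHRND as higher (1.44, adjusted p = 0.0466). That fit called 5347 of 10448 genes.

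Genes of the neuromuscular junction (ACHE, ETV4 and CHRND; 3 of 15 listed), myogenic regulation (HES1; 1 of 23), the cell cycle (CDC25B; 1 of 31) and the IGF and growth axis (INHA and CISH; 2 of 24) also gave no call, with changes between -0.68 (INHA) and 0.32 (CISH). Of the cytosolic ribosome 2 of 32 were measured, RPL38 at 0.28 ± 0.30 and RPL12 at -0.07 ± 0.87. Among 44 listed genes of the extracellular matrix outside the collagens, 6 were measured and 1 was lower, where 8.35% of all genes and 12.5% of named genes were lower. NTN4, a netrin of basement membranes, had 0.401 to 7.09 CPM in H1 (median 2.17) and 0.209 to 2.52 CPM in H2 (median 1.24). Of 20 H1 libraries, 8 exceeded the highest of H2, and the change was -0.83 ± 0.27 (adjusted p = 0.0425), a call lost without the H2 library of steer 2071 (-0.70, adjusted p = 0.101). ANGPTL2, CD248 and CCN2 of that list changed by 0.33, 0.39 and -0.18 without passing.

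Among markers of blood, vessel and liver cells, SOX18 alone was called. This transcription factor of endothelial cells, the only named gene of 16 listed for that cell type, had 0.591 to 14.3 CPM in H1 (median 3.94) and 0 to 7.48 CPM in H2 (median 2.15). It changed by -1.46 ± 0.53 (adjusted p = 0.0643), and the call was lost in edgeR and DESeq2, and without the H2 library of steer 1639 (-1.17, adjusted p = 0.103). Of the lymphoid list 5 of 20 and of the myeloid list 10 of 21 were measured, with 0 calls and median changes of -0.47 and -0.20. The summed lymphoid level was 5.15 to 44.9 CPM in H1 and 2.01 to 94.6 CPM in H2, and the summed myeloid level 17.3 to 95.5 CPM and 8.71 to 187 CPM. PTPRC was lower in H2 in all 5 steers with both phases but had a change of only -0.79 ± 0.51 (adjusted p = 0.296). Without the H2 libraries of steers 5588 and 1639, 3 of 5 lymphoid genes, PTPRC among them, and 3 of 10 myeloid genes were called lower. Over all genes tested 506 were then higher and 1694 lower. These 2 libraries were chosen after their values were seen, as the highest in PTPRC, and both are of H2. Lower leukocyte genes in H2 therefore follow in part from the choice, and no conclusion is drawn from these counts.

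Of the interferon induced list 5 of 32 were measured and 1 was lower, with a median change of -0.48. Over all genes 8.35% were lower, and over named genes 12.5%. MX1, an antiviral GTPase, lay between 1.40 and 32.3 CPM in H1 (median 4.74) and between 1.34 and 5.83 CPM in H2 (median 2.71). Of 20 H1 libraries, 6 were above the highest of H2, and the change was -0.92 ± 0.30 (adjusted p = 0.0421). IDO1, CASP4 and IFIT3 had changes of -0.64, -0.48 and -0.31. Without the H2 libraries of steers 5588 and 1639, 4 of the 5 interferon induced genes were called lower, in a fit that called 1694 genes lower over all. These 2 were also the highest H2 libraries for IDO1, CASP4 and IFIT3. That count therefore follows in part from the choice of libraries too, and no conclusion is drawn from it. The plasma protein and liver list had 11 of 24 measured, 0 calls and a median change of 0.05, with summed levels of 45.1 to 1430 CPM in H1 and 72.0 to 2280 CPM in H2. Haemoglobin HBD, the only named erythroid marker, was below the filter and at 0 CPM in every H1 library.

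In the 5 steers sampled in both phases the adipocyte genes were higher in H2 in every animal. TRARG1 was at 0.831, 1.45, 1.35, 2.55 and 0.873 CPM in H1 and at 12.0, 14.2, 14.4, 18.1 and 5.85 CPM in H2 in steers 1811, 1920, 2071, 2095 and 2220, so it was 6.70 to 14.5 times higher. CIDEC was 8.36 to 32.1 times higher, FABP4 3.22 to 20.9 times and THRSP 2.43 to 14.9 times, in all 5. FASN, not called over the phases, was 2.17 to 4.44 times higher in these steers. ELOVL6, not called either, was lower in steer 1920 (0.415 times its H1 level) and nearly level in steer 2220 (1.05 times). Its largest rise was 3.67 times, in steer 2071. MT-CO3 went from 12174, 21381, 8111, 11877 and 27925 CPM to 91139, 67432, 60533, 68376 and 62073 CPM in the same order, and so was higher in each.

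In the other direction, TBX3 went from 9.09, 2.66, 3.26, 2.90 and 3.61 CPM to 0.209, 0.938, 0.359, 0.675 and 0.370 CPM, lower in each steer. BTG2 was split. It was far lower in steers 1811, 2071 and 2220, from 89.4, 56.0 and 63.1 CPM to 4.81, 3.88 and 5.48 CPM, and differed little in steers 1920 and 2095 (4.03 to 3.62 and 8.31 to 6.98 CPM). FOSL2 was lower in 4 of the 5 steers, and ARRDC2 higher in 4. These are descriptions of 5 animals, of which steer 1920 was H-RFI in H1 and L-RFI in H2.

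**Figure D4:**
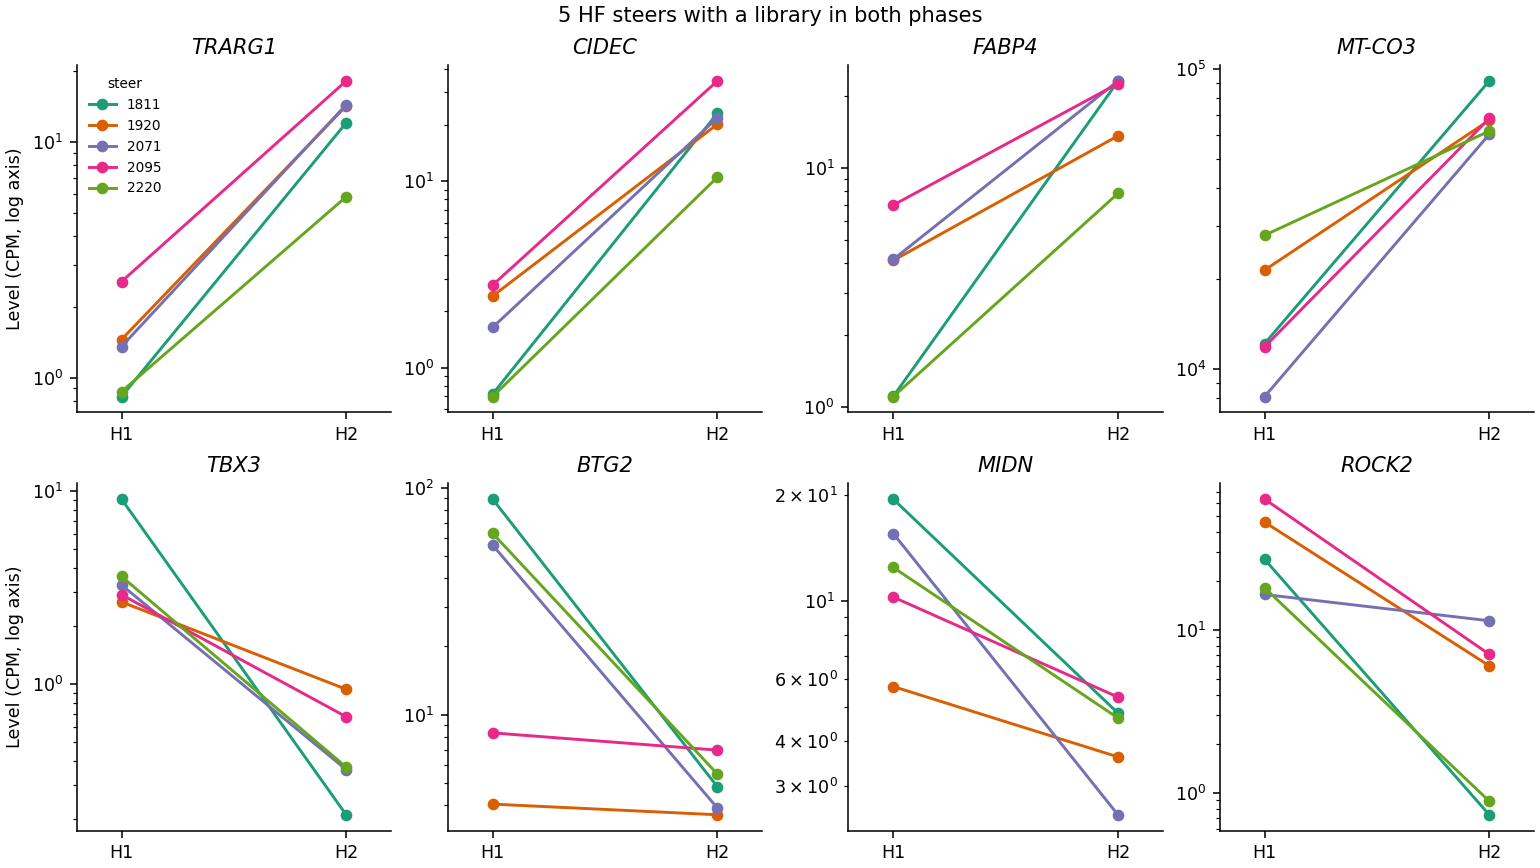
Levels of 8 genes (CPM, log axis) in H1 and H2 for the 5 steers with a library in both phases; each line is a steer. TRARG1, CIDEC, FABP4 and MT-CO3 go up and TBX3, MIDN and ROCK2 go down in every steer, and BTG2 drops steeply in 3 of them.

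ZG levels, from 19 libraries of the grass phase between H1 and H2, are given side by side with no test. For TRARG1, CIDEC and FABP4 the ZG median (4.56, 5.13 and 9.99 CPM) lay between those of H1 and H2. For THRSP, FASN and ELOVL6 it lay near that of H1 (3.39, 53.9 and 2.01 CPM). BTG2, NR4A2, FOS and PDK4 had their highest medians in ZG (31.8, 20.2, 143 and 202 CPM). MT-CO3 was at 19386 CPM in the median of ZG, between H1 and H2.

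Whether the change from H1 to H2 depended on RFI class was tested as an interaction, and 0 of 10448 genes were called (0% in either direction). An unadjusted p below 0.05 was found for 198 genes, fewer than chance alone would give. The edgeR test without the replicate block also called 0. TRARG1 had changes of 1.88 among inefficient and 2.75 among efficient steers, and CIDEC by 1.78 and 2.99, and these differences did not pass (unadjusted p = 0.324 and 0.215). Among named genes the smallest unadjusted p for a more positive change in L-RFI was that of EGR1 (-0.36 in H-RFI and 1.46 in L-RFI, adjusted p = 0.999), and SYN1, SOX18 and ACHE were also among the leading genes. For a more negative change it was that of ASCC1 (0.68 and -0.53), followed by VNN2, DDIT4, PDK4 (-0.48 and -2.56) and PIM1, all with an adjusted p of 0.999.

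CH steers went through the same phases, and the difference between the breeds' changes was tested on 68 libraries from 57 steers, 32 of them CH libraries. No gene was called out of 10361 (0% in either direction), and edgeR also called 0. An unadjusted p below 0.05 was found for 270 genes, fewer than chance alone would give. In the same fit CH had 51 genes higher (0.492%) and 188 lower (1.81%) in H2. Of the 9 named genes that rose in HF, 7 changed in the same direction in CH, and of 15 that fell and were measured in both, 14 did. The share of all genes with the same direction in both breeds is not given here. These counts therefore do not show more agreement than any gene would have. TRARG1 changed by 1.55 in CH (adjusted p = 0.0739), CIDEC by 1.45, FABP4 by 1.30 and THRSP by 1.34, of which only TRARG1 was called there. The called lower genes shared with CH were FOSL2 (-0.68) and JUN (-0.85).

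The differences between the breeds with the smallest unadjusted p included genes called in HF. FOXO1 changed by -1.12 in HF and 0.05 in CH (p = 0.0135), TBX3 by -1.68 and -0.61 (p = 0.0195), and MAP3K14 by -0.71 and -0.05 (p = 0.0408), while NFKBIA changed by 0.67 and -0.02 (p = 0.0124). EGR1 (0.56 and -1.23), ZFP36 (0.19 and -0.46), JUNB (0.14 and -1.02) and HES1 (0.22 and -0.66), none of them called in HF, were more positive in HF. BDH1 (-0.50 and 0.13) and MX1 (-0.90 and -0.14) were more negative. All had an adjusted p of 0.999.

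**Figure D5:**
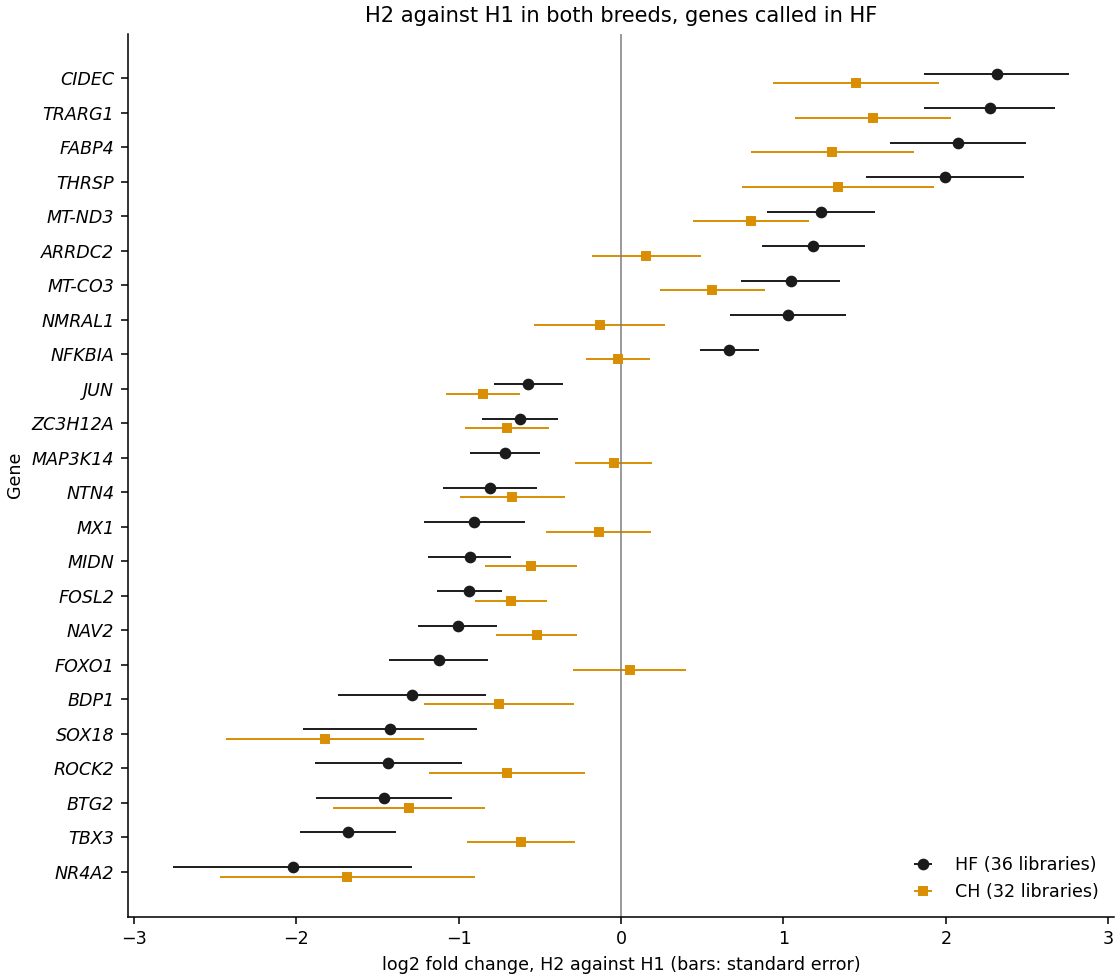
Change from H1 to H2 (log2 fold change with SE) in HF and CH steers, from 1 fit of both breeds, for the 24 named genes called in HF and measured in both breeds. The adipocyte genes lie to the right of 0 in both breeds, and NFKBIA, NMRAL1, ARRDC2, MAP3K14, MX1 and FOXO1 lie near 0 in CH.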

How the data were processed

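The deposited files held raw read counts per gene, which the authors made with STAR 2.5.1 from trimmed 50-base single reads and the Ensembl annotation, unfiltered and unnormalized. The labels name the UMD3.1 genome and the study's methods a later one, so no coordinates are given. Reverse-strand counts of 24616 genes were used. Rows for reads on no gene, several genes, several places or unmapped were left out of totals (13.7 to 54.3% of a library's reads).

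A gene was kept when it reached 1 CPM in 50% or more of the libraries compared. limma 3.58.1 voom was used with TMM factors from edgeR 4.0.16, a term for RFI class and a random steer effect estimated by duplicateCorrelation (correlation -0.21). It was also run on simulated counts. These were drawn independently for each library, with no steer effect, so that run does not bear on the steer block. Libraries with the same steer number in their labels were taken as the same animal. Their deviations from the group means correlated at -0.57 to 0.43, which does not by itself bear this out. Of 147 pairs of libraries within a group, none agreed within sampling noise. DESeq2 1.42.0 and edgeR's quasi-likelihood test were alternatives. The permutation test used 100000 resamples. Steers are separate animals.

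The comparison, the gene lists and the rule for naming genes were set with earlier results of these data known. Named genes were, per direction, the 10 with the smallest p and the 5 with the largest fold among called genes, up to 4 members of each list, and the 5 leading genes per direction of each interaction, of which 1 is not reported here. Gene names came from 159 pairs of identifier and name in the study, of which 151 matched the files. The lists of glycolysis, collagens, imprinted genes, stress, clock, fibroblast, smooth muscle and muscle fibre genes had no named member. ADIPOQ, SCD and OAS1 were not analysed here.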

Additional observations from a re-analysis of the deposited data

Results flagged for a closer look

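Within the groups of 8 and 9 libraries, the distance of the extreme library from its neighbour was compared with the group's range for 24 called genes, 72 group checks in all, of which chance alone would mark about 1 in 20. Of these, 3 stood apart. BTG2 was at 17.2 CPM in the H-RFI H2 library of steer 1661, with 3.88 to 7.73 CPM in the others. FOXO1 was at 14.5 CPM in the H-RFI H2 library of steer 5588, with 1.78 to 4.31 CPM in the others. MX1 was at 32.2 CPM in the L-RFI H1 library of steer 1877, with 1.40 to 6.93 CPM in the others.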

How the results depend on the processing

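The count of genes higher in H2 (199) stayed within 1.5 times under 9 of 17 alternatives and that of lower genes (872) under 11 of 17. The higher and lower genes numbered 2354 and 2993 with edgeR and the steer as a fixed replicate block, 690 and 1901 with sample quality weights, 366 and 1481 with no filter on low counts, 472 and 1676 in a fit of all 3 HF phases, and 506 and 1694 without the 2 libraries of highest PTPRC. Higher genes numbered 434 with edgeR without the block, 522 with DESeq2 and 781 with no fold limit, and lower genes 571 at an adjusted p below 0.05. The random replicate block mattered less, since voom without it gave 241 and 1078. Leaving out 1 library gave 137 to 307 higher and 575 to 1286 lower genes. Between the breeds and between the RFI classes 0 genes were called in each of the 4 alternatives to either fit, and likewise between the breeds in the 36 fits that left out an HF library.

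No called gene of those named reversed. MT-CO3 and MT-ND3 lost the call with all libraries kept, NFKBIA with quality weights, and JUN, SOX18, NR4A2 and ZC3H12A under 2 to 6 alternatives. Leaving out 1 library lost JUN in 17 fits, NR4A2 in 10, ZC3H12A in 2 (steers 1639 and 5588 of H2) and NTN4, NFKBIA and SOX18 in 1 each. With the steer as a fixed replicate block CHRND (-0.01) and RPL12 (-0.07) were called at 1.44 and 0.85, and the cause was not tested. The depth difference between phases was -0.0196 with all libraries (p = 0.939). The alternatives on the share of reads on no gene, multimapping and PTPRC were chosen after seeing the data.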
